A study of Homo sapiens with 4 samples.

Results

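The insulin-like growth factor (IGF) binding proteins IGFBP1 to IGFBP7 and the IGF receptors IGF1R and IGF2R were examined in RCC4 cells after silencing of PML. These 9 genes were taken by symbol from the 59050 genes of the count table, and all 9 were listed. RCC4 is an established human clear cell renal cell carcinoma (ccRCC) line that lacks a working VHL tumor suppressor. The shPML cells carried a doxycycline-inducible lentiviral hairpin against the PML gene, and the shCtrl cells carried a scrambled hairpin in the same kind of vector. Both were puromycin-selected bulk populations rather than clones, were grown in serum free of tetracycline, and received doxycycline at 100 ng/ml for 96 h before RNA was taken, so the controls were exposed to infection, selection and doxycycline as well. Each condition had 2 libraries, and a library of each condition came from each of 2 experiments with independent lentiviral infections. A single hairpin was sequenced, so an effect of PML loss and an effect particular to that hairpin cannot be told apart in these libraries.

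IGF1 and IGF2 are secreted growth factors that act through IGF1R, a receptor tyrosine kinase closely related to the insulin receptor. IGFBP1 to IGFBP6 bind both ligands with high affinity, carry them outside the cell and keep them from or release them to the receptor, whereas IGFBP7 binds IGFs weakly and is counted with the family for its related amino-terminal domain. IGF2R, the cation-independent mannose 6-phosphate receptor, carries IGF2 to the lysosome for degradation and sorts newly made lysosomal enzymes, and it has no kinase. Several IGFBPs are known parts of the secretome of senescent cells, which is why the family is of interest where loss of PML is studied as a trigger of senescence.

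The libraries were first checked against their labels and against markers of cell types. The counted reads came to 53716181 in shCtrl and 69870617 in shPML for replicate 1, and to 36964369 and 27781193 for replicate 2. PML itself stood at 93.1 and 136 CPM (counts scaled to a common library size with the TMM factors of edgeR) in shCtrl and at 54.9 and 87.6 in shPML, which is lower within each experiment. The fitted log2 fold change of PML was -0.69 ± 0.30 (SE), a fold of 0.621, with an adjusted p of 0.32 in edgeR and of 4.19e-07 once the experiment was a term of the fit. Without that term, it was -0.40 without the shPML library of replicate 1 or the shCtrl library of replicate 2. It was -1.06 without the shPML library of replicate 2. These fits set a lone library against libraries of both experiments. Within the experiments the log2 ratio of PML was -0.76 in replicate 1 and -0.63 in replicate 2. All 10 markers of renal epithelium and ccRCC exceeded 3 counts in every library, with summed levels between 5095 and 8165 CPM. The shPML library of replicate 2 stood apart. Its summed level of 4 leukocyte markers was 55.4 CPM against 0.0370 to 0.139 CPM in the other libraries, with 1177 counts of CD14 and 346 of PTPRC, while CD3E was at 0 in all 4 libraries. A list of 10 myeloid markers, written after this had been seen, summed to 249 CPM there and to 0.851 to 2.31 CPM elsewhere. Endothelial markers summed to 4.36 CPM there and to 0.166 to 0.389 CPM elsewhere. PECAM1 made up nearly all of the sum there, with 113 counts, beside 7 of VWF and 0 of CDH5 and KDR. Fibroblast markers summed to 11.7 to 25.8 CPM over the libraries, with LUM and DCN at 0 in all. The part of these transcripts in the results was not tested, and values without that library are given below.

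RCC4 cells expressed a small set of the family. Genes are compared here per kilobase of the gene length in the count table, which is not the length of the transcript in use. On this scale IGFBP3 had the highest level, followed by IGFBP7, then IGFBP6 and IGF2R, then IGF1R. IGFBP1, IGFBP2, IGFBP4 and IGFBP5 were at or near 0. IGFBP3 averaged 267 ± 18.8 CPM per kb in shCtrl and 335 ± 4.13 in shPML (SD, n = 2 in each case here and below), and IGFBP7 averaged 138 ± 28.5 and 209 ± 44.2. IGFBP6 averaged 49.0 ± 11.9 and 45.6 ± 6.05, and IGF2R averaged 35.8 ± 6.42 and 52.5 ± 0.354. These 2 neighbours changed places, since IGFBP6 lay above IGF2R in both shCtrl libraries, by 40.6 to 40.3 in replicate 1, and below it in both shPML libraries. IGF1R averaged 10.4 ± 1.58 and 12.7 ± 2.57, below each of the other 4 in every library.

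**Figure D1:**
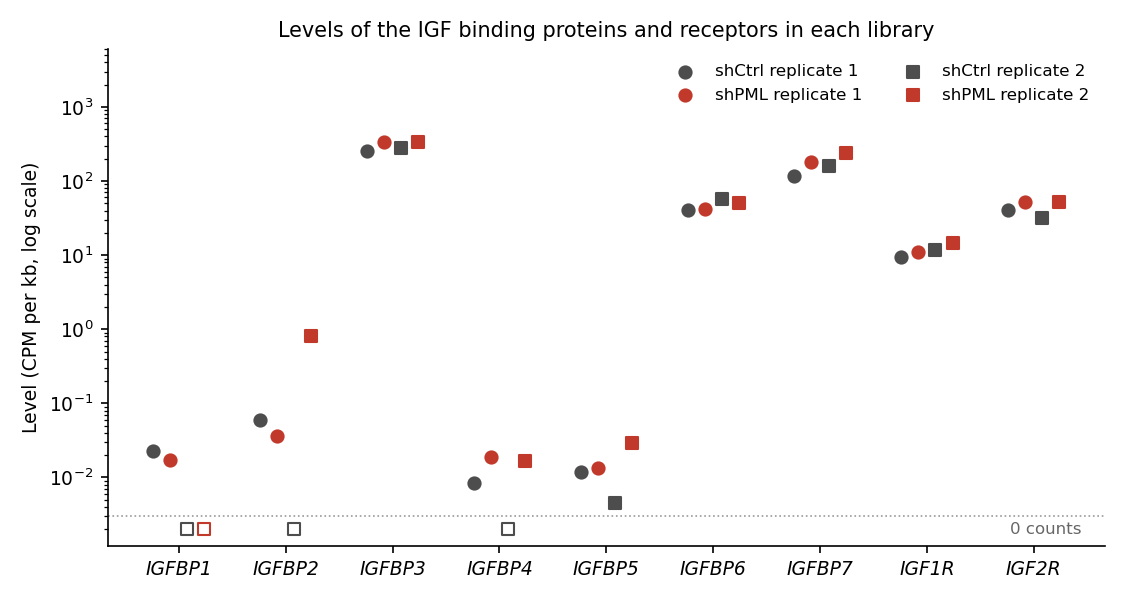
Level of each gene in the 4 libraries, in CPM per kb of gene length on a log axis. Circles are replicate 1, squares are replicate 2, dark points are shCtrl and red points are shPML, and open points under the dotted line mark 0 counts. The 5 tested genes lie between 9.32 and 338 CPM per kb in every library, and the other 4 lie below 1.

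The promoters of 3 members are printed as RefSeq windows of GRCh38.p14 from 250 bases before to 50 bases after the gene start, 5′ to 3′ on the gene's strand. Which start sites the RCC4 cells used was not measured. IGFBP3 was chosen as the most abundant member, IGFBP4 as a member with almost no counts and IGF2R as a called member with a window. Capitals mark any match, on either strand, to the TATA box motif, written TATAAA, to the GC box motif, written GGGCGG, or to the palindromic E-box motif, which reads CACGTG. The E-box motif was added to the search after the sequences had been seen. The windows are chr7:45921223-45921522 on the minus strand for IGFBP3, chr17:40443200-40443499 on the plus strand for IGFBP4 and chr6:159968832-159969131 on the plus strand for IGF2R.
IGFBP3: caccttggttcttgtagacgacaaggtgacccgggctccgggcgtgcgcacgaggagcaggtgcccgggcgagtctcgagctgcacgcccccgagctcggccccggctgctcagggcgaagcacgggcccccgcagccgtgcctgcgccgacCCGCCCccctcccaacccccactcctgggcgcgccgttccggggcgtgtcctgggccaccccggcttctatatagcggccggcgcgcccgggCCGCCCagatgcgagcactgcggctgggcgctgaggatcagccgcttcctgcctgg
IGFBP4: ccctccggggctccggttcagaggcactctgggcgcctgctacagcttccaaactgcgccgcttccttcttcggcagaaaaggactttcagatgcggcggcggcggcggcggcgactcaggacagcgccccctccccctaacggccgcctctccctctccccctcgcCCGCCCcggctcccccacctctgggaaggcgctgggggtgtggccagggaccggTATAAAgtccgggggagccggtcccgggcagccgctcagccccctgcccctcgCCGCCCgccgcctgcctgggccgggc
IGF2R: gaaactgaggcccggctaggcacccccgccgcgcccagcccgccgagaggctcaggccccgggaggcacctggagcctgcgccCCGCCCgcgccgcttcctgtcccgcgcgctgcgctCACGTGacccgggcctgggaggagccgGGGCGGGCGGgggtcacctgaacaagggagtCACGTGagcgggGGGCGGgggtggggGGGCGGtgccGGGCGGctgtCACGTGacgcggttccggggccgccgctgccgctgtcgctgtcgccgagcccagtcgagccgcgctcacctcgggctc

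The abundant IGFBP3 and the nearly silent IGFBP4 had windows of similar make-up. IGFBP3 held 36 CpG dinucleotides and 2 GC boxes, and no exact match to the other motifs. A search for TATAAA alone does not find similar letters such as the tatata in this window. IGFBP4 held 30 CpG, 2 GC boxes and 1 TATA box. Of the 35116 RefSeq windows, 45.0% held a GC box and 11.5% held a TATA box, and the median CpG count was 14. The IGF2R window was richer, with 41 CpG, 6 GC boxes, of which 2 overlap, and 3 copies of the E-box. The E-box occurred at least once in 7.26% of windows and at least 3 times in 33 of them, or 0.094%. Of the other members with a window, IGF1R held 55 CpG and 2 GC boxes, IGFBP6 held 12 CpG and 1 GC box, IGFBP5 held 9 CpG and no marked motif, and the 3 windows of IGFBP2 held 8, 28 and 6 CpG. None of these held a TATA box or an E-box. Windows of IGFBP1 and IGFBP7 were not used here. A match is a description of the letters and says nothing of what binds there.

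To ask which members differed between shPML and shCtrl, genes were tested with the edgeR quasi-likelihood test, and calls required a Benjamini-Hochberg adjusted p below 0.05 together with a change of more than 0.5 on the log2 scale. The filter on low counts kept 16516 genes and 5 of the 9 members, namely IGFBP3, IGFBP6, IGFBP7, IGF1R and IGF2R. Without a term for the experiment, 0 members were called, beside 0.0787% of all tested genes called higher and 0.333% called lower. In simulated data with an experiment effect in every gene, this fit recovered no changed genes. It did call genes in these libraries, so the simulation does not match them and says nothing of the members. IGFBP7 and IGF2R had an unadjusted p under 0.05 in edgeR without that term, beside 2958 of all 16516 tested genes. DESeq2 without the experiment also called 0 members, with 3 under 0.05, beside 3116 of the 30093 genes it tested. The third was IGFBP2 (p of 0.0463 in DESeq2), with 34 counts in the shPML library of replicate 2 and at most 5 in any other. With the experiment as a block, IGFBP7 and IGF2R were called higher and 0 members were called lower, beside 8.57% of all tested genes called higher and 10.5% called lower. DESeq2 with the block called the same genes. The median log2 fold change of the 5 tested members was 0.33, against 0.01 over all tested genes. In these bulk libraries, a change in the share of cells of one kind and a change in RNA per cell cannot be told apart.

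Among the binding proteins, IGFBP7, a secreted protein of the pericellular matrix, showed the largest difference that recurred in both experiments. Its level was 215 and 288 CPM in the shCtrl libraries and 323 and 436 CPM in the shPML libraries of replicates 1 and 2. Both shPML values lay above both shCtrl values. The log2 ratio within the experiments was 0.59 (95% interval 0.56 to 0.62) in replicate 1 and 0.60 (0.56 to 0.64) in replicate 2, where intervals are exact binomial and cover counting error only. The fitted fold was 1.51, with a log2 fold change of 0.59 ± 0.23 (SE) and an adjusted p of 0.276 in edgeR without the block, and of 0.59 ± 0.10 with an adjusted p of 1.11e-06 with it. The replicate 2 library exceeded that of replicate 1 by 0.42 on the log2 scale in shCtrl and by 0.44 in shPML, so the difference between experiments was nearly as large as that between conditions and was shared by both conditions. IGFBP7 lies at chr4:57030773-57110385 on the minus strand in the GRCh38 coordinates of the count table. It shares 260 exon bases with POLR2B and 94 with IGFBP7-AS1, both on the opposite strand. The strand setting of the counting is not given in the sources used here, so reads in those bases cannot be assigned with certainty. IGFBP7-AS1 had 17 to 29 counts per library against 10364 to 23133 for IGFBP7, while POLR2B had 2434 to 8702.

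IGFBP3, the main carrier of IGFs in blood and a known p53 target, was the most abundant member in every library, ranking between 111 and 154 among the 16516 tested genes by level per kb. Its level was 669 and 739 CPM in shCtrl and 876 and 891 CPM in shPML. Both shPML libraries lay above both shCtrl libraries, and the shPML libraries differed from each other by less than the shCtrl libraries did. The log2 ratio was 0.39 (0.37 to 0.41) in replicate 1 and 0.27 (0.24 to 0.30) in replicate 2, both under the threshold of 0.5. The fitted fold was 1.25, and the adjusted p of edgeR was 0.344 without the block and 0.00344 with it. The gene spans chr7:45912245-45921274 on the minus strand, with 5 merged exon blocks and 2633 exon bases.

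IGFBP6, which binds IGF2 in preference to IGF1, did not differ between the conditions beyond the spread between experiments. Its level was 54.5 and 77.1 CPM in shCtrl and 55.5 and 67.0 CPM in shPML, and the groups overlapped. The log2 ratio was 0.03 (-0.04 to 0.10) in replicate 1 and -0.20 (-0.29 to -0.12) in replicate 2. The fitted log2 fold change was -0.10 ± 0.22, with an adjusted p of 0.879 in edgeR without the block and 0.636 with it. The gene lies at chr12:53097436-53102345.

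The other 4 binding proteins were not detectable at a level that could be compared. IGFBP1, an IGF carrier made mainly by the liver, had 2 counts in each replicate 1 library and 0 in each replicate 2 library. IGFBP4, which is cleaved by the protease PAPPA to free IGF, had 1 and 0 counts in shCtrl and 3 and 1 in shPML. IGFBP5, which binds the extracellular matrix, had 4 and 1 counts in shCtrl and 6 and 5 in shPML. In a library of these depths, 3 counts, taken as the upper limit that a count of 0 allows, come to 0.0418 to 0.109 CPM. IGFBP2, which holds an integrin-binding sequence, had 5 and 0 counts in shCtrl and 4 and 34 in shPML. Within replicate 2 it was at least 14.8-fold higher in shPML, with the 0 counts of shCtrl set at 3 and the counting error of the 34 left out. The exact binomial interval takes that error in and allows a smaller difference, with a log2 ratio of 3.51 or more. Within replicate 1 the counts were 5 in shCtrl and 4 in shPML. The 34 counts came from the library that also held the myeloid transcripts, and their part in this value was not tested. The family holds 2 adjacent gene pairs, and their counts differed. IGFBP1 (chr7:45888360-45893660) and IGFBP3 lie tail to tail on chromosome 7 with 18.6 kb between them, where IGFBP3 was abundant and IGFBP1 stood at 0 to 2 counts. IGFBP2 (chr2:216633420-216664436) and IGFBP5 (chr2:216672105-216695549) lie tail to tail with 7.67 kb between them, and both had few counts. IGFBP4 lies at chr17:40443450-40457725.

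Both receptors had higher levels in shPML within each experiment, and IGF2R passed the threshold with the block. IGF2R had 566 and 439 CPM in shCtrl and 734 and 741 CPM in shPML. The shPML libraries lay above both shCtrl libraries and differed little from each other. The log2 ratio was 0.38 (0.35 to 0.40) in replicate 1 and 0.76 (0.73 to 0.79) in replicate 2, and the larger value came with the lower shCtrl library. The fitted fold was 1.47, with a log2 fold change of 0.55 ± 0.18 and an adjusted p of 0.21 in edgeR without the block, and of 0.57 ± 0.10 with an adjusted p of 2.85e-06 with it. The gene spans chr6:159969099-160111504, with 48 merged exon blocks, and shares no exon bases with another listed gene.

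IGF1R, the signaling receptor, had 114 and 141 CPM in shCtrl and 134 and 178 CPM in shPML. The groups overlapped, because the replicate 2 libraries of both conditions lay above those of replicate 1. The log2 ratio was 0.23 (0.18 to 0.28) in replicate 1 and 0.33 (0.28 to 0.39) in replicate 2. The fitted log2 fold change was 0.29 ± 0.21 with an adjusted p of 0.567 in edgeR without the block and 0.28 ± 0.10 with an adjusted p of 0.0294 with it, under the 0.5 threshold in both cases. The gene spans chr15:98648539-98964530, with 21 merged exon blocks.

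Counted by direction, IGFBP3, IGFBP7 and IGF2R among the 5 tested members had both shPML libraries above both shCtrl libraries, which was true of 23.1% of all tested genes. IGFBP3, IGFBP7, IGF1R and IGF2R had an adjusted p under 0.05 in edgeR with the block and a log2 fold change above 0, which was true of 14.5% of all tested genes. When the shPML library of replicate 2 was left out, the log2 fold change was 0.36 for IGFBP7, 0.55 for IGF2R, 0.32 for IGFBP3, 0.07 for IGF1R and -0.24 for IGFBP6. That fit called 0 of all 17989 genes it tested (smallest adjusted p 0.142 in edgeR, 2092 genes at an unadjusted p under 0.05), so it gives sizes only. Within replicate 1, which does not hold that library, the log2 ratios of IGFBP7, IGF2R, IGFBP3 and IGF1R were the 0.59, 0.38, 0.39 and 0.23 given above.

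The composition of the binding protein transcripts was then described as shares of their summed level per kb. The sum was 413 and 497 CPM per kb in shCtrl and 552 and 630 in shPML, so both shPML libraries lay above both shCtrl libraries. IGFBP3 made up 61.5% and 56.5% in shCtrl and 60.3% and 53.8% in shPML. IGFBP7 made up 28.6% and 31.9% in shCtrl and 32.2% and 38.2% in shPML, a gain within each experiment. IGFBP6 made up 9.82% and 11.6% in shCtrl and 7.49% and 7.92% in shPML, a loss within each experiment, although its level did not move one way. The remaining 4 genes made up at most 0.135%, in shPML of replicate 2. These shares describe transcripts and not secreted protein, which was not measured here.

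The receptors were set against their closest relatives in the same way. IGF2R exceeded IGF1R per kb by 4.33 and 2.70 times in shCtrl and by 4.79 and 3.63 times in shPML, higher in shPML within each experiment but with overlapping groups. IGF1R exceeded the insulin receptor INSR by 3.64 and 4.53 times in shCtrl and by 4.61 and 5.19 times in shPML, without overlap. The mannose 6-phosphate receptors changed order. The ratio of IGF2R to M6PR, the smaller cation-dependent receptor, was 0.425 and 0.381 in shCtrl and 1.02 and 1.12 in shPML, because IGF2R was higher and M6PR lower in both shPML libraries.

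The other genes of IGF signaling were taken from a list of 46, of which 36 passed the filter. Without the block, edgeR called 1 of them higher, ITGA5, and 1 lower, ITGB1, and with the block it called 6 higher and 5 lower, with the shares of all tested genes as given above. DESeq2 without the block called 5 higher (HTRA1, STC1, SHC1, GNPTG and ITGA5) and 2 lower (M6PR and ITGB1). Of the 30093 genes it tested, that fit called 545 higher and 845 lower. The median log2 fold change of the 36 was 0.10, against 0.01 over all tested genes. Ligand transcripts were almost absent. IGF1 had 1 count in all 4 libraries together, INS had 0, and IGF2 had 10 and 11 counts in shCtrl and 4 and 13 in shPML. IGFALS, which like PAPPA and NAGPA below falls outside the naming rule and was chosen after its values were seen, is the third partner of the circulating IGF complex and had at most 5 counts. INSR had 24.2 and 24.1 CPM in shCtrl and 22.4 and 26.6 CPM in shPML, and the groups overlapped.

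Genes that act on the binding proteins outside the cell moved in part. HTRA1, a secreted serine protease that cleaves IGFBPs, was at 49.5 and 33.4 CPM in shCtrl and 95.6 and 92.3 CPM in shPML. Its log2 fold change was 1.18, and the adjusted p of edgeR was 0.0856 without the block and 1.83e-12 with it. It was the 1 protease called of 5 tested. PAPPA, the protease of IGFBP4, had 35 and 27 counts in shCtrl and 31 and 6 in shPML and was not called. STC1, whose product inhibits PAPPA, was at 9.55 and 8.31 CPM in shCtrl and 22.0 and 22.9 CPM in shPML. Its log2 fold change was 1.33, with an adjusted p of 0.0616 in edgeR without the block and 7.28e-11 with it. DESeq2 without the block called HTRA1 and STC1, with adjusted p of 0.000413 and 9.13e-06. ADAM28 was not tested, and is named here after its values were seen. It had 5 and 0 counts in shCtrl and 3 and 91 in shPML, and the 91 counts came from the library with the myeloid transcripts.

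Both calls that edgeR made without the block were of surface partners of the binding proteins. ITGA5 and ITGB1 are the subunits of the fibronectin receptor, an integrin that also binds IGFBP1 and IGFBP2. ITGA5 was at 319 and 335 CPM in shCtrl and 816 and 842 CPM in shPML, and ITGB1 was at 795 and 707 CPM in shCtrl and 251 and 222 CPM in shPML. The log2 fold change was 1.34 for ITGA5 and -1.67 for ITGB1, each with an adjusted p of 0.0484 in edgeR without the block. With the block the adjusted p was 3.88e-18 and 8.3e-22. The ratio of ITGA5 to ITGB1 per kb went from 0.374 to 3.02 in replicate 1 and from 0.441 to 3.52 in replicate 2. The edgeR calls without the block were close to the threshold. With each library left out in turn, the log2 fold change stayed between 1.32 and 1.37 for ITGA5 and between -1.77 and -1.56 for ITGB1, and 3 of these 4 fits called no gene at all.

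Adaptors downstream of the receptors went in both directions. SHC1, a docking protein that links the receptor to RAS, was at 159 and 164 CPM in shCtrl and 250 and 268 CPM in shPML. GRB2, its partner, was at 117 and 125 CPM in shCtrl and 78.5 and 85.2 CPM in shPML. IRS2, a docking protein of the PI3K branch, was at 86.1 and 266 CPM in shCtrl and 53.7 and 167 CPM in shPML, so it fell within each experiment while the experiments differed by more than the conditions. With the block, edgeR called SHC1 and GRB14, an adaptor that restrains receptor signaling, higher (log2 fold change 0.68 and 0.55, adjusted p 1.04e-07 and 0.0257) and IRS2 and GRB2 lower (-0.68 and -0.56, adjusted p 2.36e-07 and 2.37e-05), and without it called none of them. IRS1 was also called lower with the block, at -0.52 with an adjusted p of 0.000457 in edgeR, and falls outside the naming rule of 4 genes per group. Without 1 library the log2 fold change of IRS1 ran from -0.16 (without shPML of replicate 1) to -0.93 (without shPML of replicate 2), and that of IRS2 from 0.35 (without shCtrl of replicate 2) to -1.71 (without shPML of replicate 2). Those fits had no block and set a lone library against libraries of both experiments. Within replicates 1 and 2 the log2 ratio was -0.64 and -0.40 for IRS1 and -0.68 and -0.67 for IRS2. DESeq2 with the block did not call GRB14, with an adjusted p of 0.205. Without the block, DESeq2 called SHC1, with an adjusted p of 0.00579, and none of GRB14, GRB2, IRS1 and IRS2.

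Of 7 genes that tag and sort enzymes by mannose 6-phosphate, 1 was called higher and 1 lower with the block. GNPTG, a subunit of the enzyme that makes the tag, was at 44.5 and 52.3 CPM in shCtrl and 69.9 and 97.6 CPM in shPML. M6PR was at 244 and 210 CPM in shCtrl and 132 and 121 CPM in shPML. The log2 fold change was 0.78 for GNPTG and -0.84 for M6PR, with adjusted p of 1.51e-07 and 5.57e-10 in edgeR with the block and 0.155 and 0.0865 without it. DESeq2 without the block called both, with adjusted p of 0.0312 and 0.00159. Of the 26 tested genes of the pathway list with a RefSeq promoter window, 4 held the E-box, namely GNPTG with 2 copies in a window and IRS1, M6PR and NAGPA with 1 each. The share of all genes with the E-box was not worked out. The 7.26% given above is a share of windows, and some of these genes have several. The motif was chosen after the member sequences had been seen, so this count is a description only. Of 10 genes with a related IGFBP domain, 6 were tested and 0 were called with or without the block.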

How the data were processed

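RNA from 4 libraries of RCC4 cells was analysed, 2 with shCtrl and 2 with shPML, as the corrected labels of the deposited record give them (an update states that the labels of 2 samples had been swapped). According to the labels and methods, the authors made stranded mRNA libraries, used Trimmomatic 0.39 for trimming, STAR for alignment to GRCh38 and featureCounts 1.6.4 for counting. The deposited values are raw counts of reads per gene, whole numbers without normalization. The Gencode release and the strand setting are not given in the sources used here. Columns without a number were taken as replicate 1, since the remaining columns are numbered 2.

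In R 4.3.3, filterByExpr, TMM scaling and the quasi-likelihood test of edgeR 4.0.16 were applied to the counts, with Benjamini-Hochberg adjustment over 16516 genes and the thresholds of the study. The edgeR and DESeq2 fits with and without the block, but not the other alternatives, were tested on simulated data with a set dispersion and an experiment effect in every gene. There edgeR without the block recovered none of the changed genes and with the block recovered most of them, with some false calls. In the libraries themselves edgeR without the block called 13 genes higher and 55 lower, so the simulation does not match them and does not decide between the fits. The fit had no block, and the experiment as a block was an alternative. Replicate numbers were checked for pairing: the methods describe 2 experiments, same-numbered libraries deviated together from their group means (correlation 0.546 across 16516 genes, not independent of each other), and the block lowered the common dispersion from 0.0813 to 0.0137. The p-values set a change against the spread between these libraries and do not measure that spread. With 2 libraries per group, the spread is estimated largely from all genes together. Small p-values with the block therefore do not stand for many replicates of a gene. No exact permutation test was used, since its smallest two-sided p here is 0.333. Other alternatives were DESeq2 1.42.0, RLE scaling, other filters and each library left out in turn. CPM were divided by the gene length in the count table for levels per kb.

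The members, the pathway and marker lists and the tests were chosen with earlier results of these data known. Named genes were all members, PML, the ligands, INSR and, from each group of the pathway list, up to 4 genes called in either fit with the same sign in both experiments, ordered by size. IRS1, PAPPA, ADAM28, IGFALS and NAGPA fall outside this rule and were named after their values were seen. Promoter windows are from RefSeq, GRCh38.p14, and 7 members matched. Protein features were not analysed here.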

Additional observations from a re-analysis of the deposited data

Results flagged for a closer look

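The log2 ratio of shPML over shCtrl had opposite signs in the 2 experiments for 6 genes, and the difference between the experiments was not tested, with 1 library per condition in each. IGFBP6 was at 0.027 in replicate 1 and -0.20 in replicate 2. INSR was at -0.11 and 0.14. IGF2, on 4 to 13 counts per library, was at -1.73 and 0.63. GNPTAB, which encodes the catalytic part of the enzyme that makes the mannose 6-phosphate tag, was at -0.13 and 0.043. LRP1, an endocytic receptor that binds IGFBP3, was at -0.38 and 0.22, and KAZALD1, a relative with an IGFBP domain, was at -0.083 and 0.24.

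Transcripts outside the compared genes were present in the shPML library of replicate 2. The 4 leukocyte markers summed to 55.4 CPM and the 10 myeloid markers to 249 CPM, above each other library. The leukocyte sum came from CD14 and PTPRC, and the most abundant myeloid markers were LYZ with 2349 counts and LAPTM5 with 1584. The part of these transcripts in the values of the IGF system was not tested.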

How the results depend on the processing

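The number of calls depended on the fit. Without the block, edgeR called 13 genes higher and 55 lower, none of the members, and 1 and 1 of the pathway list. With the experiment as a block, these were 1415 and 1735, with 2 members higher and 6 and 5 of the pathway list. DESeq2 called 545 and 845, with 5 and 2 of the pathway list, and with the block 998 and 1297, with 2 members higher and 5 and 5 of the pathway list. RLE scaling gave 0 and 0 (smallest adjusted p 0.0501 in edgeR, 2967 genes at an unadjusted p under 0.05), with 0 and 0 of the pathway list. No filter on low counts gave 891 and 946, with 6 and 3 of the pathway list. At least 10 counts in every library gave 53 and 144, with 2 of the pathway list higher and 1 lower. Leaving out 1 library at a time, which leaves a lone library assumed to vary like the other group, gave 0 to 187 higher and 0 to 61 lower, with 0 of the pathway list higher and 0 to 1 lower; the 187 and 61 came without the shPML library of replicate 1, and the other 3 fits called 0 of all genes (smallest adjusted p 0.0848, 0.311 and 0.142 in edgeR, with 1868, 1410 and 2092 genes at an unadjusted p under 0.05), so a lost call there says nothing of a single gene. PML was called lower with the block (-0.70), with the block in DESeq2 (-0.69) and without a filter (-0.68), and it ran from -0.40 (without the shPML library of replicate 1 or the shCtrl library of replicate 2) to -1.06 (without the shPML library of replicate 2) when 1 library was left out. The fits without 1 library had no block, so they set a lone library against libraries of both experiments. Within replicates 1 and 2 the log2 ratio was -0.76 and -0.63 for PML and -0.68 and -0.67 for IRS2. Without 1 library the log2 fold change ran from 0.36 to 0.81 for IGFBP7, from 0.38 to 0.77 for IGF2R, from 0.27 to 0.39 for IGFBP3 and from 0.07 to 0.47 for IGF1R. Without 1 library it ran from -0.32 to 0.16 for IGFBP6, from -2.08 to 0.94 for IGF2, from -0.11 to 0.13 for INSR and from -1.71 to 0.35 for IRS2. The direction reversed for IGFBP6 without the shPML library of replicate 1 (0.02) or the shCtrl library of replicate 2 (0.16), for INSR without the shPML library of replicate 2 (-0.11), for IRS2 without the shCtrl library of replicate 2 (0.35), and for IGF2 with the block (-0.39), with the block in DESeq2 (-0.50), without the shCtrl library of replicate 1 (-0.26) and without the shPML library of replicate 2 (-2.08). The mean ratio of IGFBP7 within the experiments went from 0.59 to 0.61 with RLE and 0.62 without scaling, and the level of IGF2R in shPML from 52.5 to 52.9 CPM per kb without scaling. The cause of these changes was not tested. Depth limits the comparison of IGFBP1, IGFBP4 and IGFBP5, with at most 6 counts per library, and of IGFBP2 outside the shPML library of replicate 2.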
